A study of Mus musculus with 5 samples.

Results

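The 10 genes described here are Pparg, Nr1h3, Fabp4, Fabp5, Cd36, Lpl, Plin2, Apoe, Trem2 and Adipoq, genes of lipid handling grouped around the nuclear receptor Pparg. They were chosen by gene symbol from the array's annotation, 10 of 19505 named genes. The highest-mean probe set was to stand for a gene with several, but each of the 10 had only 1, so no measured level decided a choice. The set was selected on measured values only in that it was proposed with the differences between RG7112 and vehicle tumours in view: results of this comparison were known, and the differences of its genes are therefore a description that supports nothing by itself.

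RNA was measured on 5 Affymetrix Clariom S arrays, 1 per tumour, in subcutaneous tumours grown from B16.F10 luc+GFP+ cells, a mouse melanoma line labelled with luciferase and a green fluorescent protein. The hosts were wild-type C57BL/6 mice aged 10 weeks, and every mouse received anti-PD-1, an antibody against a receptor that restrains T cells, on days 1, 4 and 8. In addition, 3 mice received RG7112, an oral small molecule that keeps MDM2 from binding p53 (RG7112 tumours 1, 2 and 3). The other 2 mice received the vehicle alone by mouth, 5% DMSO in corn oil (vehicle tumours 3 and 4). RG7112 or vehicle was dosed every second day over 6 days, starting 2 days after injection, and tumours were excised on day 13. No group was free of anti-PD-1, a single melanoma line was used, and each sample was a mixture of melanoma cells and infiltrating cells, so no signal below can be assigned to a cell type directly.

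Macrophages take up fatty acids, lipoproteins and dead cells, and handle the resulting lipid through a set of genes under nuclear receptors. PPAR gamma, the product of Pparg, pairs with RXR, binds fatty acid derivatives and switches on genes of fatty acid uptake and storage, and LXR alpha, the product of Nr1h3, senses oxidised cholesterol and switches on its export. Both receptors, and most of the 10 genes, are not particular to macrophages: Pparg and Fabp4 are also high in fat cells, and Fabp4 and Cd36 in capillary endothelium. Adipoq, the hormone adiponectin, is made by fat cells and served here as the adipocyte gene of the set.

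The arrays were close in distribution, and their median log2 signals lay between 5.76 and 5.81. On the second principal component RG7112 tumour 3 was apart from the rest (-30.7, where the other 4 tumours lay between 3.01 and 14.8), and on the first component RG7112 tumour 1 lay farther from the vehicle tumours (-32.7) than RG7112 tumours 2 and 3 did (-9.39 and -6.48, with the vehicle tumours at 24.6 and 24.0; the signs are arbitrary). Values without either tumour are given where they matter. The melanocyte markers averaged 11.2 in each RG7112 tumour, 11.05 in vehicle tumour 3 and 11.13 in vehicle tumour 4. Macrophage markers were measured at a mean of 6.83 to 7.14 in RG7112 tumours and 5.91 to 6.12 in vehicle tumours. Levels of different probe sets are not comparable with each other, and only the same gene is compared between tumours below.

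Pparg has several transcription starts, from which a shorter protein found in many cells and a longer protein found mainly in adipocytes are made. Its single probe set does not separate them. The RefSeq windows of the 3 annotated starts (250 bases before to 50 after each, mouse build GRCm38.p6) are shown because the Pparg signal could come from any of them, with the window of Adipoq beside them as that of the adipocyte gene. Capitals mark matches to AGGTCA on either strand, the half-site to which nuclear receptors such as PPAR gamma and LXR alpha bind in pairs.
Pparg, the first start, chr6:115360894-115361193, plus strand: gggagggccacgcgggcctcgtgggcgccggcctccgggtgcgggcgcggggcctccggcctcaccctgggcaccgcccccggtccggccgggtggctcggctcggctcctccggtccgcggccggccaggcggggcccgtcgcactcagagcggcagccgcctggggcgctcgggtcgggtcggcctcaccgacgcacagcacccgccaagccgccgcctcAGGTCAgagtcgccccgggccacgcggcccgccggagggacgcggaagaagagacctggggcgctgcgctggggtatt
Pparg, the second start, chr6:115362099-115362398, plus strand: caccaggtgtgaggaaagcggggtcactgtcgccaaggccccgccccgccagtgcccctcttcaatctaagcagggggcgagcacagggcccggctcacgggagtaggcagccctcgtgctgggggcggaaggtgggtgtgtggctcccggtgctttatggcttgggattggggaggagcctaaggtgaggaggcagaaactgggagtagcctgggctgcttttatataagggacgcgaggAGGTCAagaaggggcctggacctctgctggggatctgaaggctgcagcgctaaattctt
Pparg, the third start, chr6:115421816-115422115, plus strand: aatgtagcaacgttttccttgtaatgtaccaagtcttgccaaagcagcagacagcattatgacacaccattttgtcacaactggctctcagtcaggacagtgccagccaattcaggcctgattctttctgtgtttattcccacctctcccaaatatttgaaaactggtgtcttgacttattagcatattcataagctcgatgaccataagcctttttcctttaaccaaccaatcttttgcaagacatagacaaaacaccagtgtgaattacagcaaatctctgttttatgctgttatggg
Adipoq, chr16:23146286-23146585, plus strand: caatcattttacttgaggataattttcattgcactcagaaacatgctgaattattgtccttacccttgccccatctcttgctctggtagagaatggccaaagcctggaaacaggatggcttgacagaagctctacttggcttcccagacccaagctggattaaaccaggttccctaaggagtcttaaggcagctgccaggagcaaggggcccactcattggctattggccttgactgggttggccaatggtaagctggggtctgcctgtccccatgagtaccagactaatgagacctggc

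A half-site lay 28 to 23 bases before the first Pparg start and another 9 to 4 bases before the second. The window of the third start and that of Adipoq held none. Windows were at hand for 7 of the 10 genes, 12 in all, and Cd36, Plin2 and Trem2 also held 1 half-site each, on the minus strand. Of 32851 mouse windows of the same length, 16.3% held it, so single matches are common. The paired element of PPAR with RXR (AGGTCANAGGTCA) and that of LXR with RXR (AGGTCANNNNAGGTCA), which contain the half-site, were in 0.0396% and 0.0152% of all windows and in 0 of the 12. The PU.1 sequence GAGGAAGT (3.2% of windows) and the gamma-activated sequence TTCNNNGAA (8.3%) were also in 0 of the 12. A match is a description of letters, and a window without one says nothing about a factor's binding elsewhere.

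**Figure D1:**
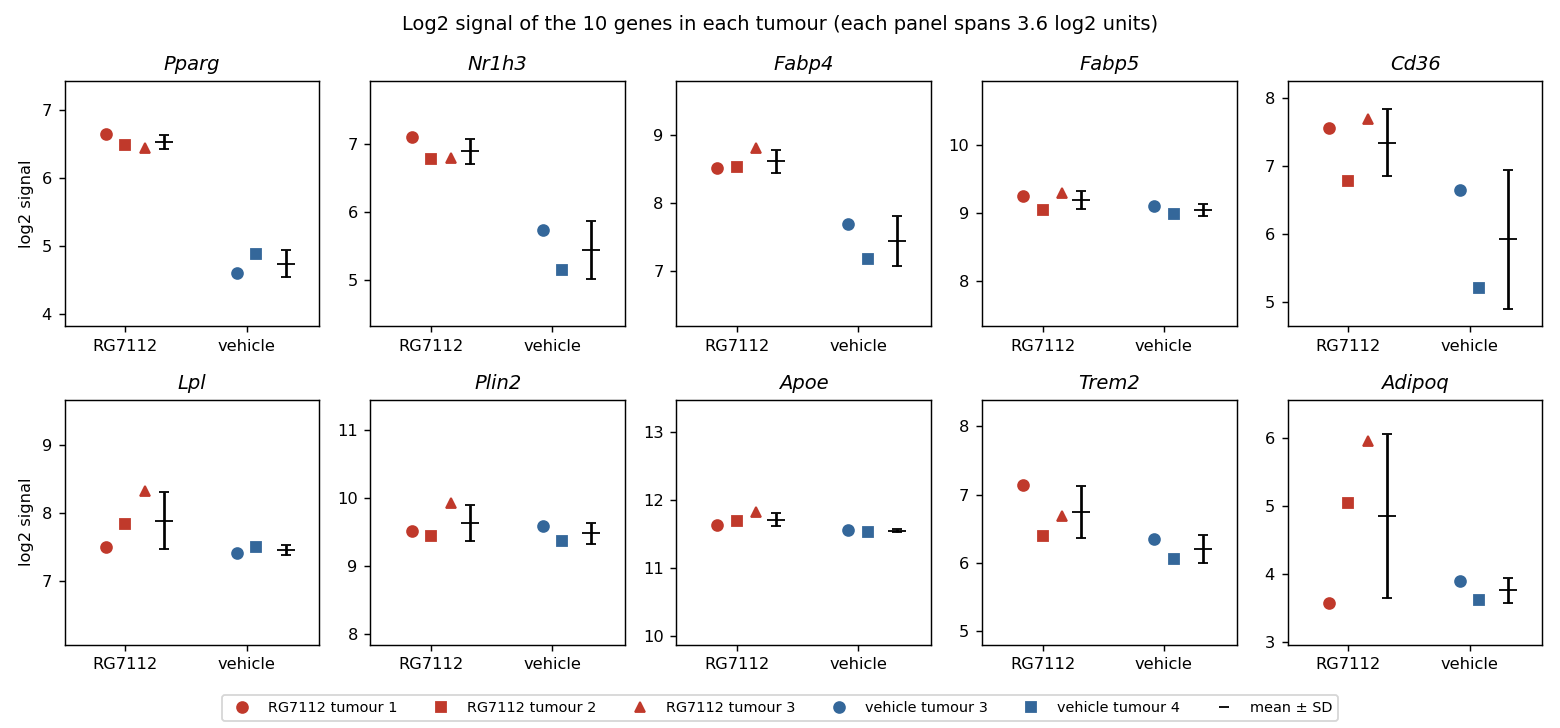
Log2 signal of each gene in the 3 RG7112 tumours (red) and the 2 vehicle tumours (blue), 1 symbol per tumour, with the mean and SD beside each group; every panel spans the same number of log2 units. The RG7112 tumours lie close together and above both vehicle tumours for Pparg, Nr1h3 and Fabp4, while for Adipoq RG7112 tumour 1 lies at the vehicle level and RG7112 tumours 2 and 3 above it.

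Among the nuclear receptors, both genes were higher in RG7112 tumours. Pparg had log2 signals of 6.64, 6.48 and 6.45 in RG7112 tumours 1, 2 and 3, against 4.61 and 4.88 in vehicle tumours 3 and 4. All RG7112 tumours lay within 0.20 of each other and far above both vehicle tumours. The means were 6.52 ± 0.11 (SD, n = 3) with RG7112 and 4.74 ± 0.19 (SD, n = 2) with vehicle, a log2 difference of 1.78 ± 0.16 (SE), or 3.44-fold (limma adjusted p over all probes = 0.000369). It ranked 53 of 22203 probes by the size of the rise. Leaving out any tumour gave 1.64 to 1.92 and kept the call.

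Nr1h3 was at 7.10, 6.77 and 6.79 in RG7112 tumours 1, 2 and 3, against 5.74 and 5.14 in vehicle tumours 3 and 4. The groups did not overlap, and the vehicle tumours differed from each other by more than the RG7112 tumours did. The difference was 1.45 ± 0.20 (SE), 2.73-fold (limma adjusted p = 0.00383). Without vehicle tumour 4, the lower one, it was 1.15 and the call was lost (adjusted p = 0.112). In whole tumours such a rise can reflect more cells of a type or more RNA per cell, and these cannot be told apart.

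The pair of fatty acid carriers, small cytosolic proteins that shuttle fatty acids and are encoded close together, differed. Fabp4 had 8.51, 8.53 and 8.81 in RG7112 tumours 1, 2 and 3, against 7.70 and 7.18 in vehicle tumours 3 and 4. RG7112 tumour 3 was the highest and vehicle tumour 4 the lowest, and the groups did not overlap. The difference was 1.18 ± 0.19 (SE), 2.26-fold (limma adjusted p = 0.00991), and it was 0.92 without vehicle tumour 4, no longer called (adjusted p = 0.216). Without RG7112 tumour 3 the difference was 1.08 and still called (adjusted p = 0.0489).

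Fabp5, which many cell types including tumour and skin cells use, was at 9.24, 9.05 and 9.29 in RG7112 tumours 1, 2 and 3, against 9.10 and 8.98 in vehicle tumours 3 and 4. The groups overlapped, with RG7112 tumour 2 between the vehicle tumours. Its difference of 0.15 ± 0.16 (SE) did not pass (limma adjusted p = 0.874), and the 95% interval of -0.20 to 0.50 leaves out a change as large as that of Fabp4. In the RefSeq gene order Pmp2 and Fabp9 lie between Fabp5 and Fabp4, and Fabp12 lies on the far side of Fabp4; they encode related lipid-binding proteins and are named here for their position. Their differences were 0.09 ± 0.18 for Pmp2, 0.08 ± 0.19 for Fabp9 and -0.22 ± 0.15 for Fabp12 (SE), and none passed (adjusted p from 0.768 to 0.955). All of them were dim, between 3.05 and 3.82 in the 5 tumours.

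Of the genes that bring fatty acids to the cell, Cd36 varied widely within both groups. This scavenger receptor takes up fatty acids and oxidised lipoproteins. It had 7.56, 6.77 and 7.69 in RG7112 tumours 1, 2 and 3, against 6.64 and 5.20 in vehicle tumours 3 and 4. RG7112 tumour 2 lay just above vehicle tumour 3, so the groups were separated by little, and vehicle tumour 4 was far below the rest. The difference of 1.42 ± 0.37 (SE) was near that of Nr1h3 in size but did not pass (limma adjusted p = 0.138; 95% interval 0.60 to 2.24). Without vehicle tumour 3 it was 2.14 and called (adjusted p = 0.0304), and without vehicle tumour 4 it was 0.70 and not called (adjusted p = 0.769), so the value rests on which vehicle tumour is used.

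Lpl, the lipase that frees fatty acids from circulating triglyceride, was at 7.49, 7.83 and 8.32 in RG7112 tumours 1, 2 and 3, against 7.40 and 7.50 in vehicle tumours 3 and 4. RG7112 tumour 1 was at the vehicle level and RG7112 tumour 3 was the highest, as for Adipoq. The difference of 0.43 ± 0.22 (SE) did not pass (limma adjusted p = 0.638), and it was 0.21 without RG7112 tumour 3. The 95% interval was -0.06 to 0.92.

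Storage and lipoprotein genes had small differences. Plin2, the coat protein of lipid droplets in macrophages and many other cells, was at 9.52, 9.44 and 9.93 in RG7112 tumours 1, 2 and 3, against 9.59 and 9.36 in vehicle tumours 3 and 4. Only RG7112 tumour 3 lay above both vehicle tumours. The difference of 0.15 ± 0.19 (SE; 95% interval -0.26 to 0.56) did not pass (limma adjusted p = 0.899), and without RG7112 tumour 3 it was -0.000693. Apoe, the lipoprotein that carries cholesterol out of macrophages, had 11.6, 11.7 and 11.8 in RG7112 tumours 1, 2 and 3, against 11.6 and 11.5 in vehicle tumours 3 and 4. All RG7112 tumours were above both vehicle tumours, yet the difference was only 0.17 ± 0.15 (SE; 95% interval -0.18 to 0.51; limma adjusted p = 0.852).

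Trem2, a receptor for lipids and lipoproteins on macrophages, had 7.14, 6.39 and 6.68 in RG7112 tumours 1, 2 and 3, against 6.34 and 6.05 in vehicle tumours 3 and 4. RG7112 tumour 1 was the highest, and RG7112 tumour 2 was barely above vehicle tumour 3. The difference of 0.54 ± 0.22 (SE; 95% interval 0.06 to 1.03) did not pass over all probes (limma adjusted p = 0.467), and it ranged from 0.34 to 0.72 with each tumour left out.

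Adipoq had 3.57, 5.03 and 5.95 in RG7112 tumours 1, 2 and 3, against 3.89 and 3.62 in vehicle tumours 3 and 4. RG7112 tumour 1 was below both vehicle tumours, and the RG7112 tumours spread over 2.39 log2 units, the widest span of the 10 genes within a group. The means were 4.85 ± 1.20 (SD, n = 3) with RG7112 and 3.76 ± 0.19 (SD, n = 2) with vehicle, a difference of 1.10 ± 0.50 (SE) that did not pass (limma adjusted p = 0.561). Without RG7112 tumour 1 the difference was 1.74 and called (adjusted p = 0.00995), and without RG7112 tumour 3 it was 0.55 and not called (adjusted p = 0.661). The signals of RG7112 tumour 1 and of both vehicle tumours were below the lower quartile of their arrays, 4.02 to 4.13.

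**Figure D2:**
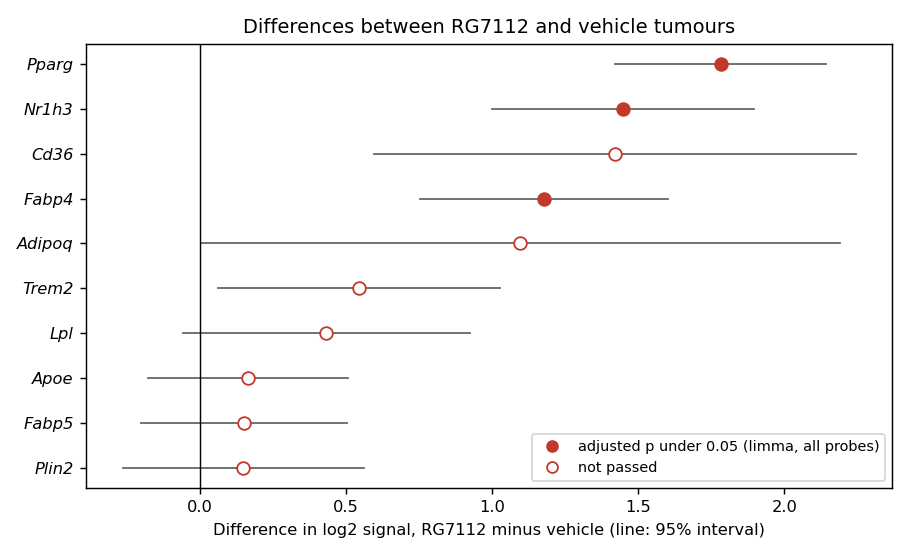
Difference in log2 signal, RG7112 minus vehicle, for each of the 10 genes (points) with its 95% interval from the limma fit (lines). Pparg at 1.78, Nr1h3 at 1.45 and Fabp4 at 1.18 are filled because their adjusted p is under 0.05, while Cd36 at 1.42 and Adipoq at 1.10 have wide intervals.

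Of the 10 genes, 3 were called higher, 0 lower and 7 did not pass. Over all 22203 probes 1.42% were called higher and 0.0315% lower. The median difference of the 10 genes was 0.82, against -0.03 over all probes, and all 10 differences were above 0. Every RG7112 tumour was above both vehicle tumours in 6 of the 10, a separation found in 10.8% of all probes. Because the genes were proposed with this comparison known, these counts describe the chosen genes and carry no weight of their own. Without vehicle tumour 4 only Pparg was called, and 65 probes were called higher in place of 315.

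**Figure D3:**
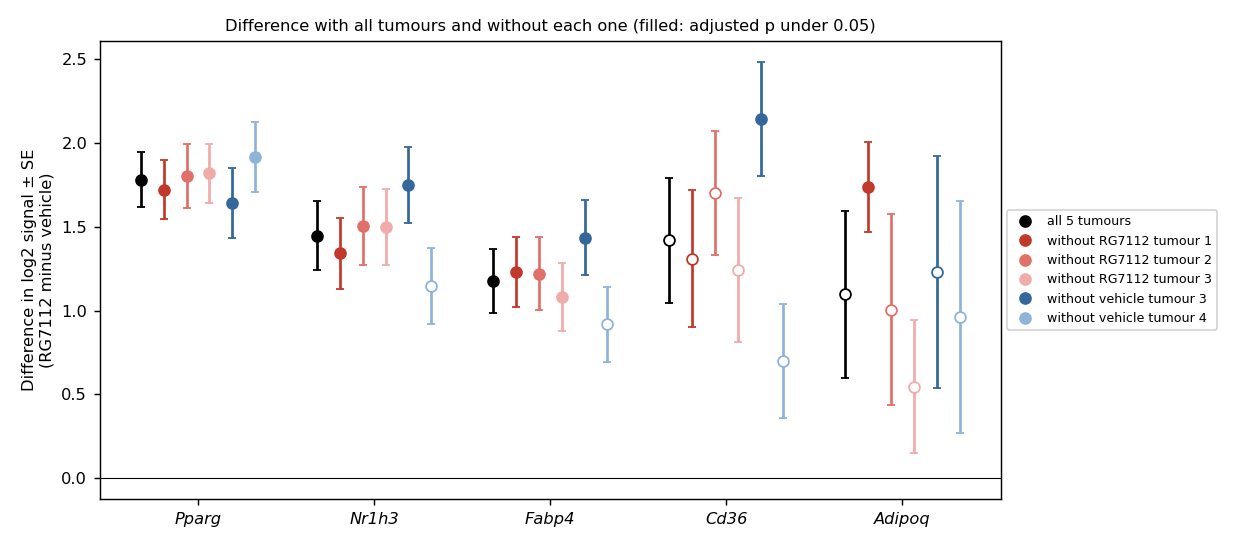
Difference in log2 signal (RG7112 minus vehicle, ± SE) for Pparg, Nr1h3, Fabp4, Cd36 and Adipoq with all 5 tumours (black) and with each tumour left out (colours as in the key); filled points have an adjusted p under 0.05. Pparg is filled throughout, Nr1h3 and Fabp4 are open only without vehicle tumour 4, and Adipoq is filled only without RG7112 tumour 1.

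The next question was whether Pparg and Fabp4 followed the lipid genes of macrophages or the adipocyte gene Adipoq from tumour to tumour. In RG7112 tumour 1, Pparg was 1.90 and Fabp4 1.07 above the vehicle mean, while Adipoq was 0.19 below it (-0.19). In RG7112 tumour 2 the values were 1.74 for Pparg, 1.09 for Fabp4 and 1.28 for Adipoq, and in RG7112 tumour 3 they were 1.71, 1.37 and 2.20 in the same order of genes. Pparg and Fabp4 were thus each raised by a similar amount in all RG7112 tumours, including the one in which Adipoq was not. Their spans within the RG7112 tumours were 0.20 and 0.30, against 2.39 for Adipoq. The order of tumours differed between the 2 genes. Fabp4 had the order of Adipoq within both groups, rising from RG7112 tumour 1 to 3 and higher in vehicle tumour 3 than 4. RG7112 tumours 1 and 2 were close for Fabp4. Pparg fell from RG7112 tumour 1 to 3 and was higher in vehicle tumour 4. The mean of other lipid-associated macrophage genes also fell over RG7112 tumours 1, 2 and 3 (9.40, 9.25 and 9.10). In the vehicle tumours that mean was higher in tumour 3 (8.87) than in tumour 4 (8.67).

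Likeness to Pparg was measured as the root mean square distance, over the 5 tumours, between 2 genes' log2 deviations from their own means, where a gene with no change at all would lie at 0.88. Among 19504 genes Nr1h3 ranked 92 (distance 0.33), Fabp4 194 (0.42), Cd36 653 (0.65) and Trem2 701 (0.66). Lpl ranked 1438, Apoe 3354, Fabp5 3636 and Plin2 5087, and Adipoq came last of the members at 10045, with a distance of 0.91. For Fabp4, where a flat gene would lie at 0.61, Nr1h3 again came closest of the members (rank 81, distance 0.24), and Adipoq was farthest (rank 13070, distance 0.68). Distance rises with the size of change as well as with its pattern, and these ranks are descriptions over 5 tumours.

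Against marker lists, Pparg lay at 0.44 from the mean of the macrophage markers, 0.71 from that of the endothelial markers and 0.85 from that of the adipocyte markers. Fabp4 lay at 0.22, 0.46 and 0.56 from the same lists. The other genes of lipid-associated macrophages were farther than the general macrophage markers, at 0.66 from Pparg and 0.41 from Fabp4, and the LXR targets were at 0.79 and 0.53 in the same order of genes. The former list is not confined to macrophages, since it holds Gpnmb, which melanoma cells themselves express. The lipid droplet and fatty acid uptake lists lay about as far as a flat gene, at 0.90 and 0.89 from Pparg and at 0.61 each from Fabp4. Partners and targets of the PPAR receptors were also near a flat gene, at 0.87 from Pparg and 0.59 from Fabp4. Melanocyte markers, at 0.81 from Pparg and 0.55 from Fabp4, were about as near as the adipocyte markers. These distances follow the size of a list's change too, and are no ranking of cell types. Leaving aside 1 predicted gene, which ranked second, the genes closest to Pparg were Gbp9, an interferon-inducible GTPase (distance 0.12, difference 1.91), Mpeg1, the macrophage perforin-like protein (0.15, difference 1.90), the adaptor Lcp2 of immune cell signalling (0.15, difference 1.88), Fgl2, a fibrinogen-like protein of immune cells (0.16, difference 1.82), and the interferon-inducible nuclear body protein Sp100 (0.17, difference 1.79). Closest to Fabp4 were H2-T-ps (0.07, difference 1.12), the non-classical class I gene H2-T23 (0.08, difference 1.17), Trim14, an adaptor of antiviral signalling (0.09, difference 1.10), the adhesion molecule Vcam1 (0.09, difference 1.30) and Csf1r, the receptor of the macrophage growth factor (0.10, difference 1.08). Near-identical class I genes such as H2-T-ps and H2-T23 can share probes, so these may not be separate measurements.

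The log2 gap between Pparg and Adipoq was larger by 0.68 in RG7112 than in vehicle tumours, and that between Fabp4 and Adipoq by 0.08. These gaps are a description, since an exact permutation test over the 10 splits of the tumours cannot give a p below 0.1. Both moved with single tumours. Without RG7112 tumour 1, where Adipoq was lowest of the RG7112 tumours, the gap changed by -0.02 for Pparg and -0.51 for Fabp4, and without RG7112 tumour 3, where Adipoq was highest, by 1.27 and 0.53 in the same order of genes.

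**Figure D4:**
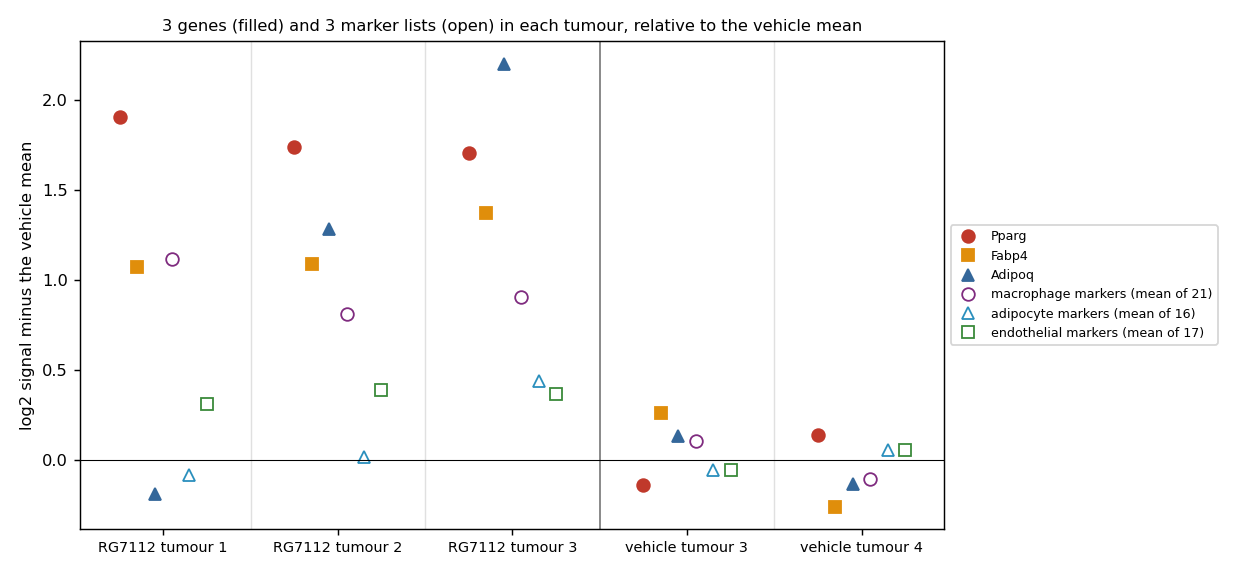
Log2 signal minus the vehicle mean in each tumour for Pparg, Fabp4 and Adipoq (filled) and for the mean level of 21 macrophage, 16 adipocyte and 17 endothelial marker genes (open). Pparg and Fabp4 are above 1 in every RG7112 tumour, whereas Adipoq is -0.19 in RG7112 tumour 1 and 2.20 in RG7112 tumour 3.

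Adipocyte markers other than Adipoq had 0 of 16 called in either direction. In a list this short that is near the share of all probes called, 1.42% higher and 0.0315% lower. The adipocyte markers had a median difference of 0.05. Their mean level was 5.31, 5.41 and 5.83 in RG7112 tumours 1, 2 and 3, against 5.33 and 5.45 in vehicle tumours 3 and 4, so only RG7112 tumour 3 stood above the vehicle tumours. The lipid droplet protein Cidec had 4.59, 5.04 and 6.39 in RG7112 tumours 1, 2 and 3, against 5.28 and 4.96 in vehicle tumours 3 and 4. Like Adipoq, it was highest in RG7112 tumour 3, but RG7112 tumour 2 lay between the vehicle tumours. Retn had 4.75, 5.23 and 6.62 in RG7112 tumours 1, 2 and 3, against 5.02 and 5.14 in vehicle tumours 3 and 4. As for Adipoq, RG7112 tumour 1 was below both vehicle tumours and RG7112 tumours 2 and 3 were above them. The difference of Retn, 0.45 ± 0.41 (SE), did not pass (limma adjusted p = 0.846). Plin1, which coats the fat droplet of adipocytes, had 4.28, 4.14 and 4.70 in RG7112 tumours 1, 2 and 3, against 4.49 and 4.78 in vehicle tumours 3 and 4. Its signal was thus no higher in any RG7112 tumour than in vehicle tumour 4. The hormone gene Lep was dim in all tumours, at 3.74 to 4.32 in RG7112 tumours and 3.47 to 4.09 in vehicle tumours. Car3, a carbonic anhydrase of fat and muscle, had the largest difference of the list, 1.38 ± 0.37 (SE), which did not pass (limma adjusted p = 0.144) but was called without RG7112 tumour 2 (1.79, adjusted p = 0.011).

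Many macrophage markers were also higher in the RG7112 tumours. Of 21 measured markers 10 rose, 0 fell and 11 did not pass, with a median difference of 1.08, against 1.42% of all probes called higher. Adgre1, the F4/80 antigen, differed by 1.58 ± 0.18 (SE; limma adjusted p = 0.00127) and Csf1r by 1.08 ± 0.17 (SE; adjusted p = 0.00722). Aif1, a cytoskeletal protein of macrophages, differed by 2.57 and Ly6c2, a marker of inflammatory monocytes, by 2.03. Of the 21 differences 20 were above 0. The exception was Cd163, at -0.56 ± 0.17 (SE; limma adjusted p = 0.240). Every RG7112 tumour was below both vehicle tumours for Cd163, a separation found in 14% of all probes. Markers such as Mrc1 (0.29), Cd14 (0.29) and Siglec1 (0.01) overlapped between the groups, so the rise was not uniform over the list. Without vehicle tumour 4 only 1 of the 21, Aif1, was called, and Adgre1 (1.54, adjusted p = 0.0574), Csf1r (0.92, adjusted p = 0.182) and Ly6c2 (1.62, adjusted p = 0.0666) were not. The part of macrophage number in the rise of Pparg, Nr1h3 and Fabp4 was not tested.

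Other genes of lipid-associated macrophages, the lipid-laden cells described around fat and in tumours, rose in part. Of 19 such genes on the array, 4 rose, 0 fell and 15 missed the threshold, against 1.42% of all probes called higher. The median difference was 0.48. The 4 were Axl, a receptor for the uptake of dead cells (1.30 ± 0.17), Tyrobp, the signalling partner of Trem2 (1.30 ± 0.19), Acp5, a lysosomal phosphatase (1.11 ± 0.18), and the integrin Itgax (0.98 ± 0.20, SE; limma adjusted p = 0.0376). Axl, Tyrobp and Acp5 had adjusted p-values of 0.00269, 0.00547 and 0.0111. Itgax lost its call without RG7112 tumour 1 (adjusted p = 0.0923), RG7112 tumour 2 (0.109), vehicle tumour 3 (0.434) or vehicle tumour 4 (0.285). Without vehicle tumour 3, 1 of the 19, Axl, was called, and Tyrobp (adjusted p = 0.0544) and Acp5 (adjusted p = 0.0858) were not. Without vehicle tumour 4, 0 were called in limma (Axl adjusted p = 0.0979, Tyrobp 0.152 and Acp5 0.234), when 1566 of all probes had an unadjusted p under 0.05. Msr1, a scavenger receptor, had a difference of 0.86 ± 0.22 that missed the threshold (adjusted p = 0.131). The list also holds Gpnmb, which melanoma cells themselves express and which differed by 0.16.

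Partners and textbook targets of the PPAR receptors were also listed without the 10 genes, so that Fabp4, Cd36, Lpl and Plin2, themselves known targets, are not among them. The median difference of the 26 measured genes was 0.01. Of these, 1 rose, 0 fell and 25 missed the threshold, against 1.42% of all probes called higher. The one was Tgm2, a transglutaminase (0.82 ± 0.16, SE; limma adjusted p = 0.0323), a call lost under quantile normalization (adjusted p = 0.0647) and without RG7112 tumour 2 (adjusted p = 0.112), RG7112 tumour 3 (0.0931), vehicle tumour 3 (0.173) or vehicle tumour 4 (0.404). Angptl4, an inhibitor of Lpl that PPAR receptors induce, differed by 0.20 ± 0.18 (SE), and Pdk4, which spares glucose for fatty acid use, by 0.12 ± 0.15 (SE; adjusted p = 0.847 and 0.899). Cebpa, a partner of Pparg in fat cell formation, differed by 0.42 ± 0.19, Aqp7, a glycerol channel, by 0.41 ± 0.22, and Lpin1, a phosphatidate phosphatase, by -0.33 ± 0.16 (SE), and none of these passed. Angptl4 and Pdk4 were named for their role as targets after their values were seen.

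For LXR, the receptor family of Nr1h3, 0 of 14 measured cholesterol and lipid target genes were called in limma in either direction. In a list this short that is near the share of all probes called, 1.42% higher and 0.0315% lower. The median difference of the 14 was 0.19. Pltp, a phospholipid transfer protein, had the smallest p. It was at 8.38, 7.84 and 8.79 in RG7112 tumours 1, 2 and 3, against 7.54 and 7.34 in vehicle tumours 3 and 4, a difference of 0.90 ± 0.24 (SE; adjusted p = 0.154), called without RG7112 tumour 2 (1.15, adjusted p = 0.0267). The groups did not overlap for Pltp. Abcg1, a cholesterol exporter, and Mertk, a receptor for dead cells, each differed by 0.57 (adjusted p = 0.236 and 0.350), and the groups did not overlap for either. Every RG7112 tumour was above both vehicle tumours in 4 of the 14, a separation found in 10.8% of all probes. Abcg8 differed by -0.30 ± 0.17 (SE; limma adjusted p = 0.687). Every RG7112 tumour was below both vehicle tumours for Abcg8, a separation found in 14% of all probes. Of the 14 differences 10 were above 0. Abca1, the other main exporter, overlapped between groups, with a difference of 0.20 ± 0.20 (SE; adjusted p = 0.868), and was named for its role after its value was seen.

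Genes of fatty acid uptake outside the 10 (0 of 23 called, median difference -0.09) and of lipid droplets (0 of 20 called, median -0.02) had no called member in limma. Over all probes 1.42% were called higher, so 0 calls in lists this short are near that share. In the uptake list, the lipoprotein receptor Lrp1 differed by 0.50 ± 0.17 and Gpihbp1, which holds Lpl on capillaries, by 0.36 ± 0.18 (SE; adjusted p = 0.356 and 0.631). In the droplet list Mgll, a lipase of monoacylglycerols, had 6.53, 7.10 and 7.67 in RG7112 tumours 1, 2 and 3, against 6.41 and 6.58 in vehicle tumours 3 and 4, and differed by 0.60 ± 0.27 (SE; adjusted p = 0.554). Like Lpl and Adipoq, it was at the vehicle level in RG7112 tumour 1 and highest in RG7112 tumour 3. Fitm2, needed for droplet formation, differed by -0.38 ± 0.19 and G0s2, an inhibitor of lipolysis, by -0.27 ± 0.16 (SE), and neither passed.

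Endothelial markers, which matter for Fabp4 and Cd36, had a mean level of 6.46 to 6.53 in RG7112 tumours and 6.09 to 6.20 in vehicle tumours. Every RG7112 tumour was above both vehicle tumours in 11 of 17 measured markers, a separation found in 10.8% of all probes. Differences were above 0 in 15 of the 17, with a median of 0.32. By call, 1 of the 17 rose, 0 fell and 16 did not pass, against 1.42% of all probes called higher. The one was the VEGF receptor Kdr (1.01 ± 0.19, SE; limma adjusted p = 0.0203), a call lost without RG7112 tumour 2 (adjusted p = 0.0796), RG7112 tumour 3 (0.0844), vehicle tumour 3 (0.370) or vehicle tumour 4 (0.111). The defining genes Cdh5 (0.75 ± 0.18; adjusted p = 0.0811) and Pecam1 (0.41 ± 0.17; adjusted p = 0.465) did not pass, although Cdh5 was called with array weights (adjusted p = 0.043). Emcn, a vessel sialomucin, differed by 0.63 ± 0.17 (SE; adjusted p = 0.146). The part of vessels in the rise of Fabp4 was not tested.

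Other cell types that a subcutaneous tumour could hold showed few called genes. None of 12 melanocyte, 12 keratinocyte, 12 skeletal muscle or 10 dendritic cell markers was called in limma, and their median differences were 0.10, -0.18, 0.06 and -0.01. With 1.42% of all probes called higher, 0 calls in lists this short are near that share. Of 8 sebaceous gland markers 1 rose, Mgst1, a glutathione transferase that many tissues express (0.97 ± 0.17, SE; adjusted p = 0.0151), a call lost without RG7112 tumour 2 (adjusted p = 0.0562), vehicle tumour 3 (0.124) or vehicle tumour 4 (0.274). Mean levels of the muscle markers were 6.60, 6.31 and 5.29 in RG7112 tumours 1, 2 and 3, against 5.87 and 6.06 in vehicle tumours 3 and 4. RG7112 tumour 3, the highest for Adipoq, was the lowest for muscle.

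**Figure D5:**
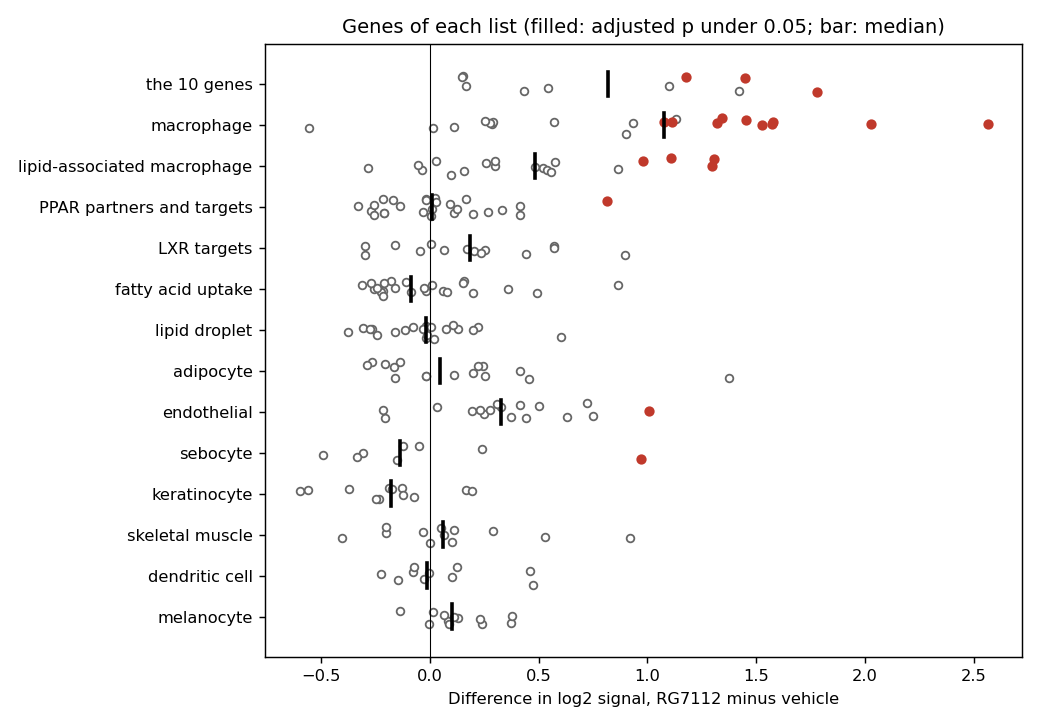
Difference in log2 signal (RG7112 minus vehicle) of every measured gene in each list, 1 point per gene, filled where the adjusted p is under 0.05, with a bar at the list's median. The macrophage list has 10 filled points and a median of 1.08. The lists of LXR targets, fatty acid uptake, lipid droplets and adipocytes have no filled point, where 1.42% of all probes were called higher.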

How the data were processed

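The deposited values are log2 signals, 1 per probe set and tumour. Per the submitters' processing notes, the authors made them with RMA in the oligo package (version and options: not given in the sources used here). RMA corrects background, quantile-normalizes the arrays and summarises the probes of a set. Scanner files, scan dates and slides were not used here, so array batches could not be examined. The annotation named 1 gene for 19572 of 22203 probe sets, several for 0 and none for 2631.

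All 22203 probe sets were fitted with limma 3.58.1 in R 4.3.3 (lmFit, eBayes; 3 RG7112 against 2 vehicle tumours, no covariate, no filter), with Benjamini-Hochberg adjustment over all of them. A gene was called at an adjusted p under 0.05, and "rose" or "fell" is used of called genes. The fit was run on simulated data with independent probes, drawn from limma's own variance model, to check that planted differences were estimated correctly. Such data hold no array effects or correlated genes, so they do not test how reliable the calls in these tumours are. Precision is limited by the number of arrays, with only 10 splits of the tumours possible.

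The 10 genes and the 13 lists (223 genes, 196 of them measured, 17 in more than 1 list) were chosen with earlier results of these data known. Named are the 10 genes, up to 3 genes per list with the smallest unadjusted p, the 5 genes closest to Pparg and to Fabp4 (predicted genes and clone names are counted but not named), and 7 defining markers (Pecam1, Cdh5, Adgre1, Csf1r, Plin1, Cidec, Lep). Itgax, Gpnmb, Angptl4, Pdk4, Abca1, Abcg8, Cd163, Mrc1, Cd14, Siglec1, Retn, Pmp2, Fabp9 and Fabp12 were named outside this rule. The promoter windows are RefSeq sequences of GRCm38.p6. The alternatives were trend and robust eBayes, array weights, cyclic loess, quantile normalization, omission of dim probes, 1 probe per gene, the mean over a gene's probes, other thresholds and leaving out each tumour.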

Additional observations from a re-analysis of the deposited data

How the results depend on the processing

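Pparg was called under all 15 alternatives, with differences from 1.64 to 1.92. Nr1h3 and Fabp4 were each called under 14 of 15 and lost only without vehicle tumour 4; with each tumour left out, Fabp4 ran from 0.92 to 1.44 and Adipoq from 0.55 to 1.74. With each tumour left out, 1 to 4 of the 10 genes and 1 to 17 of the list genes were called higher, against 3 and 17 with all tumours, and 65 to 268 probes were called higher and 0 to 5 lower, against 315 and 7. The probes called lower were 16 with array weights, 4 with cyclic loess, 2 without dim probes and 29 at an adjusted p under 0.10. The difference in change between Pparg and Adipoq ran from -0.0174 to 1.27 with each tumour left out, and that between Fabp4 and Adipoq from -0.51 to 0.53. For Fabp4 it was also -0.0216 with cyclic loess and -0.0085 with quantile normalization, against 0.08. With each tumour left out, the differences of Plin2 (-0.000693 to 0.26), Cidec (-0.30 to 0.60), and Lep (-0.0668 to 0.55) crossed 0; none of these was called, and the cause was not tested. The thresholds of 0.10 and 1.5-fold reused the main fit, so neither could lose the calls of Pparg, Nr1h3 and Fabp4. Averaging a gene's probes left the differences of the 10 genes unchanged, since each had only 1 probe set. The counts of alternatives include these settings. Settings that leave out a vehicle tumour assume that the lone vehicle tumour varies like the RG7112 tumours. No paired analysis was made because the labels match no RG7112 tumour to a vehicle tumour. Dim signals such as Adipoq in vehicle tumours limit how small a level can be read.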
